A study of Mus musculus with 12 samples.

Results

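Signal transducers and activators of transcription (STATs) and the inhibitors that they switch on were examined in dorsal skin of mice with dermatitis induced by 1-chloro-2,4-dinitrobenzene (DNCB). The 9 genes, taken by name from the 36400 genes in the deposited table, were Stat2, Stat3, Stat4, Stat5a, Stat5b, Socs1, Socs2, Socs3 and Cish. All samples came from female BALB/c mice, which were 6 weeks old at purchase and whose backs were shaved. Control mice received only the vehicle, acetone with olive oil. In all other mice DNCB was painted on the skin, at 1% for sensitization and at 0.5% for the later challenges. DNCB mice received no cells, whereas scMSC mice received 4 injections of 2000000 human umbilical cord mesenchymal stem cells (MSCs) in 100 µL under the skin beside the lesion. The scivMSC mice received the same volume split by route, with 50 µL beside the lesion and 50 µL through a tail vein. Dorsal skin was collected on day 30. RNA was sequenced in 3 libraries per group, 12 in all, at totals of 63877153 to 75134001 estimated counts per library. These totals are not numbers of fragments, since about 4 estimated counts were taken as 1 fragment. The injected cells were human and the sequenced tissue was whole mouse skin. A change in the level of a gene can therefore reflect fewer cells of a type or less RNA per cell, and these cannot be told apart here.

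Cytokines and growth factors bind receptors that carry Janus kinases (JAKs), and the kinases phosphorylate STAT proteins, which pair, enter the nucleus and bind DNA. STAT3 acts downstream of receptors of the IL-6, IL-10 and G-CSF type, STAT5A and STAT5B downstream of growth hormone, prolactin, GM-CSF and common gamma chain cytokines, STAT2 downstream of type I interferons, and STAT4 downstream of IL-12. The suppressors of cytokine signalling (SOCS1, SOCS2, SOCS3) and CISH are induced by STATs, block the receptor complex and so close a negative feedback loop. Blockade of this pathway is an established treatment of atopic dermatitis.

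STAT dimers recognise the motif TTCNNNGAA, which reads the same on both strands. It was searched in the RefSeq promoter windows of build GRCm38.p6, 300 bases each, from 250 before to 50 after a start site. Windows were found for 8 of the 9 genes, 11 windows in all, and Socs2 had none. The motif was present in the windows of 2 genes, Socs3 and Cish. Of all 32851 promoter windows, 8.30% held the motif, and 0.457% held it at least 2 times, as Cish did. The 250 bases before the start of Socs3 (chr11:117969367-117969616, minus strand) are printed because this gene had the largest changes below. The match begins at position -154 from the start, and 77 of these bases lie in a noncoding exon of GENCODE. The 250 bases before the start of Socs1 (chr16:10785537-10785786, minus strand) are printed for contrast and hold no match. For Cish, only the first 30 bases after the start (chr9:107296659-107296688, plus strand), inside an untranslated exon of GENCODE, are printed, with matches that begin at bases 1 and 12. Capitals mark the motif, and sequences read 5′ to 3′.
Socs3: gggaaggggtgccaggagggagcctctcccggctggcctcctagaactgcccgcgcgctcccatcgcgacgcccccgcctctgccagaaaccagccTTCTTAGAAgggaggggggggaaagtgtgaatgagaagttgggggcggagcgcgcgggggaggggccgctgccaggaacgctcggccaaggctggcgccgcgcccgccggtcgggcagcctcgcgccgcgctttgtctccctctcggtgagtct
Socs1: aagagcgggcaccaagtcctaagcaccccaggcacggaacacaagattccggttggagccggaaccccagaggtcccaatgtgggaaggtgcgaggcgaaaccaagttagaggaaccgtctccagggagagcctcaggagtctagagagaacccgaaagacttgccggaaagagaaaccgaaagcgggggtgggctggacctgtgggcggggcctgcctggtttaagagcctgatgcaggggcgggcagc
Cish: TTCCTGGAAagTTCTTGGAAatctgtcaaa
A match describes these letters only, since binding was not measured.

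Transcript levels are given as FPKM, fragments scaled for gene length and sequencing depth, so that genes can be compared. In control skin the most abundant members were Stat5b at 15.2 ± 0.956 FPKM (SD, n = 3), Socs3 at 13.9 ± 2.20 and Stat3 at 13.1 ± 0.254, and the ranges of neighbours in this order overlapped. Cish at 4.48 ± 1.52, Stat5a at 4.19 ± 0.337 and Stat2 at 3.15 ± 1.45 followed with overlapping ranges, below them Socs1 at 1.32 ± 0.310 and Socs2 at 0.509 ± 0.202. In DNCB skin Socs3 led at 42.7 ± 13.1 FPKM, followed by Stat3 at 22.1 ± 2.44 and Stat5b at 10.4 ± 0.602, with no overlap between the 3 genes. Stat2 at 3.26 ± 0.230, Cish at 3.23 ± 0.680 and Stat5a at 2.94 ± 0.368 overlapped. In scMSC skin Stat3, at 10.96 ± 1.65 FPKM, and Stat5b, at 9.28 ± 3.04, stood above Socs3, at 7.34 ± 2.93, with overlapping ranges. In scivMSC skin Stat3 was at 14.6 ± 3.09 FPKM, Socs3 at 11.3 ± 4.50 and Stat5b at 10.3 ± 0.223. The range of Socs3 overlapped those of Stat3 and Stat5b, which did not overlap each other.

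**Figure D1:**
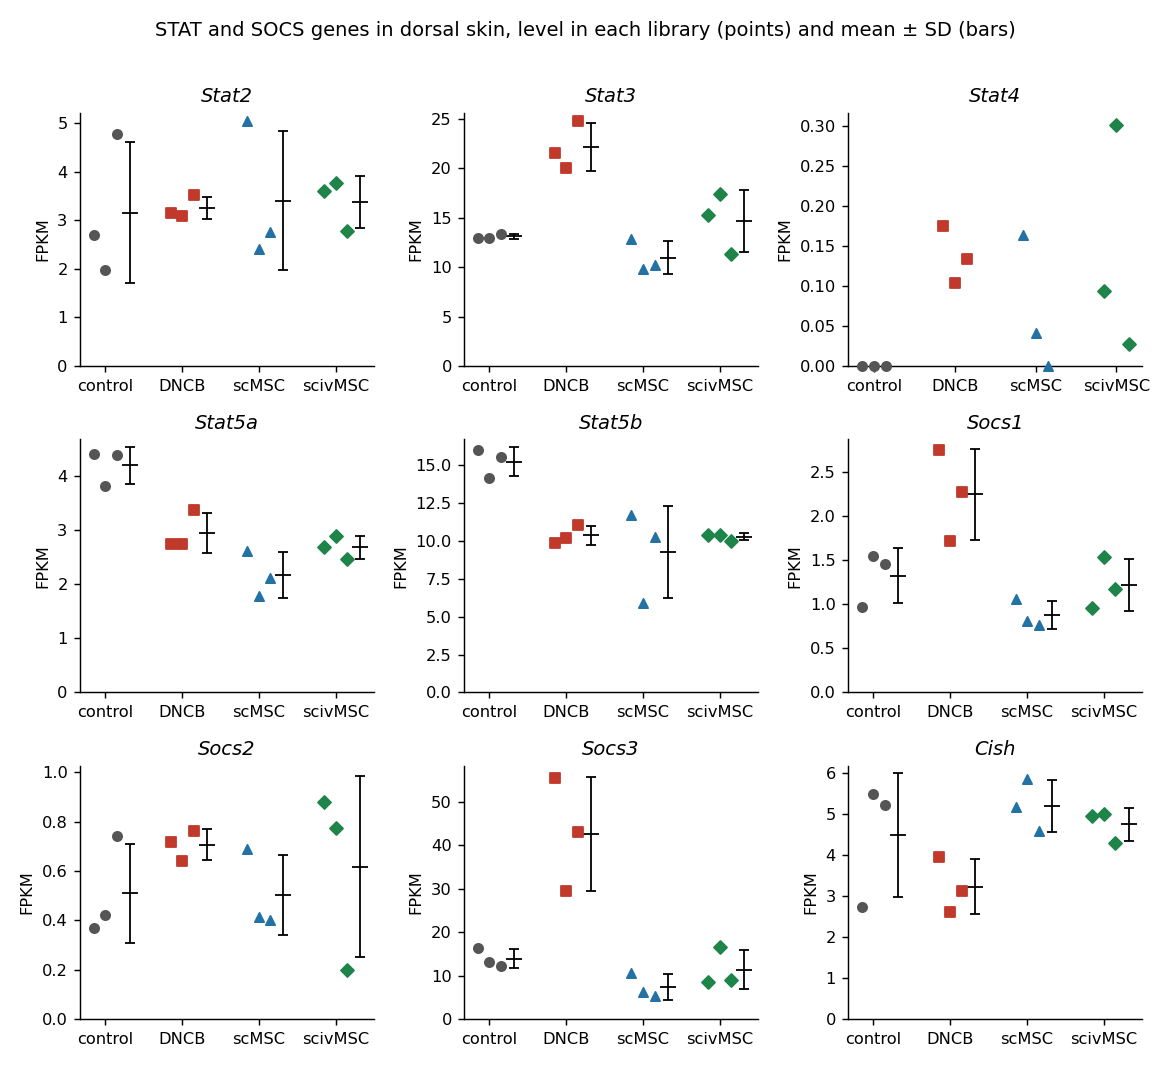
Level of each of the 9 genes in FPKM (vertical axes, each from 0) in the 3 libraries of each group (points), with the mean ± SD beside them, which is left out for Stat4. Socs3 and Stat3 were higher in all 3 DNCB libraries than in the 9 others, while Stat5a and Stat5b were higher in all 3 control libraries than in the 9 others.

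The 21890 genes whose mean reached 0.1 FPKM were tested with the quasi-likelihood test of edgeR, and a gene passed at a Benjamini-Hochberg adjusted p under 0.05. Of the 9 members 8 were tested, since Stat4 fell below that mean. Against control, 2 members rose in DNCB skin (Stat3 and Socs3), where 12.9% of all tested genes rose, and 2 fell (Stat5a and Stat5b), where 12.4% fell. DNCB skin was higher than scMSC skin in 3 members (Stat3, Socs1 and Socs3), against 5.77% of all tested genes, and lower in 0, against 6.95%. It was higher than scivMSC skin in 2 members (Stat3 and Socs3), against 3.60% of all tested genes, and lower in 0, against 4.56%. When a change over 2-fold was also required, 1 member remained against control (Socs3, 14.2% of all tested genes), 2 against scMSC (Socs1 and Socs3, 8.50%) and 1 against scivMSC (Socs3, 5.46%). These 3 comparisons share the DNCB libraries.

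Relative to control, 0 members rose in scMSC skin, where 10.4% of all tested genes rose, and 3 fell (Stat5a, Stat5b and Socs3), where 8.12% fell. In scivMSC skin 0 members rose, against 7.11% of all tested genes, and 2 fell (Stat5a and Stat5b), against 6.13%. Between scMSC and scivMSC 0 members passed in edgeR and in every alternative tool, DESeq2 and limma included, and 1 gene of all, or 0.00457%, did, although 1642 genes had an unadjusted p under 0.05. Among members the unadjusted p was lowest for Stat3, at 0.0181, with a log2 difference of -0.40 ± 0.14 in scMSC relative to scivMSC and an adjusted p of 0.613. The median log2 fold change of the 8 tested members was 0.09 in DNCB relative to control, 0.45 relative to scMSC and 0.17 relative to scivMSC. Over all tested genes it was 0.02, -0.02 and -0.02. Without TMM scaling the median of all genes relative to control moved to 0.20, 0.16 and 0.21 in the DNCB, scMSC and scivMSC groups, so ratios of FPKM to control stand higher than the fold changes of the fit, which are relative to TMM.

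**Figure D2:**
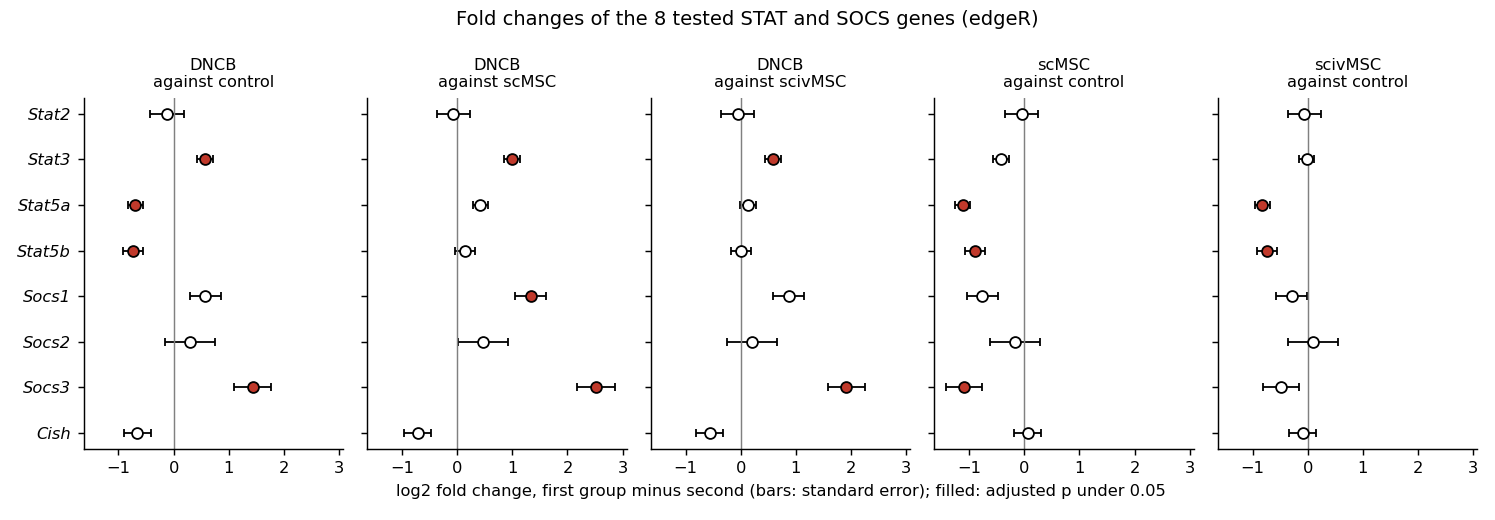
Log2 fold change (horizontal axis, first group minus second) with its standard error for the 8 tested genes in 5 comparisons, with filled points where the adjusted p was under 0.05. Socs3 lay at 1.43, 2.52 and 1.92 in the 3 DNCB comparisons, and Stat5a and Stat5b lay below 0 in each comparison with control.

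Stat3 (ENSMUSG00000004040, GRCm38 chromosome 11, 100885098 to 100939540, minus strand) encodes the transcription factor of IL-6-type cytokines, which drives acute-phase and wound-repair genes. It measured 13.0, 12.9 and 13.4 FPKM in control replicates 1, 2 and 3, and 21.5, 20.0 and 24.8 in DNCB. It measured 12.9, 9.82 and 10.2 FPKM in scMSC and 15.3, 17.4 and 11.3 in scivMSC. The 3 DNCB libraries all lay above the 9 others, and the 3 control libraries lay within a narrow band. The log2 fold change in DNCB was 0.57 ± 0.14 (SE) relative to control, with an adjusted p of 0.0144. Relative to scMSC it was 0.99 ± 0.14, with an adjusted p of 0.00254. Relative to scivMSC it was 0.59 ± 0.14, with an adjusted p of 0.0305. These are rises of 1.49-, 1.99- and 1.51-fold, and alternative fits placed the difference from scMSC between 0.91 and 1.09 on the log2 scale. All scMSC libraries lay below all control libraries, by -0.42 ± 0.14 with an adjusted p of 0.0651, which missed the threshold. The scivMSC libraries overlapped control, at -0.02 ± 0.14 with an adjusted p of 0.943. The rise over control was lost without control replicate 1, 2 or 3 or without DNCB replicate 3, at adjusted p of 0.0571 to 0.0645 within a range of 0.00921 to 0.0645 when single libraries were left out. The difference from scivMSC was lost without control replicate 2, any DNCB replicate, or scivMSC replicate 1 or 3, at adjusted p of 0.0501 to 0.111 within a range of 0.0203 to 0.111. It was also lost, at up to 0.0782, with library size alone, with no filter, or with only the 6 libraries compared.

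Socs3 (ENSMUSG00000053113, chromosome 11, 117966079 to 117970047, minus strand) is the feedback inhibitor of STAT3 at gp130, leptin and G-CSF receptors. It measured 16.4, 13.0 and 12.2 FPKM in control and 55.5, 29.4 and 43.1 in DNCB. It measured 10.7, 6.12 and 5.22 FPKM in scMSC and 8.52, 16.5 and 8.88 in scivMSC. The lowest DNCB library was above the highest of the 9 others, and scMSC lay entirely below control. Socs3 had the largest rise of the tested members in each DNCB comparison. The log2 fold change was 1.43 ± 0.33 relative to control (2.70-fold) with an adjusted p of 0.00948. Relative to scMSC it was 2.52 ± 0.34 (5.75-fold) with an adjusted p of 0.0022. Relative to scivMSC it was 1.92 ± 0.33 (3.77-fold) with an adjusted p of 0.00913. These 3 calls held under all alternative fits and with each library left out in turn, at adjusted p of at most 0.0439. Socs3 also fell below control in scMSC skin, by -1.09 ± 0.33 with an adjusted p of 0.0411, but not in scivMSC skin, at -0.48 ± 0.32 with an adjusted p of 0.375. The fall in scMSC was lost without control replicate 1 or 2, DNCB replicate 3, or scMSC replicate 2 or 3, at adjusted p of 0.0582 to 0.128 within a range of 0.0186 to 0.128. With library size alone, limma or only the 6 libraries compared, it was also lost, at 0.0583 to 0.0811.

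Socs1 (ENSMUSG00000038037, chromosome 16, 10782240 to 10785536, minus strand) encodes an inhibitor of JAKs, best known as a brake on interferon and IL-4 signalling. It measured 0.969, 1.55 and 1.45 FPKM in control and 2.75, 1.72 and 2.27 in DNCB. It measured 1.06, 0.805 and 0.766 FPKM in scMSC and 0.954, 1.53 and 1.17 in scivMSC. As for Socs3, all 3 DNCB libraries were above the 9 others, but at a far lower level. The log2 fold change in DNCB was 1.34 ± 0.28 relative to scMSC, with an adjusted p of 0.0117. Relative to control it was 0.58 ± 0.28 with an adjusted p of 0.158, and relative to scivMSC 0.87 ± 0.28 with an adjusted p of 0.085, so neither passed. The call against scMSC was lost without DNCB replicate 1, at an adjusted p of 0.0511, the highest of all alternatives. Limma on log2(FPKM + 1) passed Socs1 against control at an adjusted p of 0.0442, and DESeq2 passed it against scivMSC at 0.0153, where the other alternatives ran up to 0.436 and 0.262.

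Stat5a (ENSMUSG00000004043, chromosome 11, 100859351 to 100885169, plus strand) and Stat5b (ENSMUSG00000020919, chromosome 11, 100780731 to 100850724, minus strand) encode the closely related STAT5 proteins. Both fell in every group that had received DNCB, with or without MSCs. Stat5a measured 4.39, 3.80 and 4.38 FPKM in control and 2.73, 2.73 and 3.37 in DNCB. In scMSC it measured 2.61, 1.78 and 2.11 FPKM, and 2.69, 2.88 and 2.46 in scivMSC. Stat5b, the more abundant, measured 16.01, 14.2 and 15.5 FPKM in control and 9.87, 10.2 and 11.03 in DNCB. In scMSC it measured 11.7, 5.88 and 10.2 FPKM, and 10.4, 10.4 and 10.03 in scivMSC. For both genes the lowest control library was above the highest of the 9 others.

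Relative to control, the log2 fold change of Stat5a was -0.69 ± 0.14 in DNCB skin, -1.12 ± 0.14 in scMSC skin and -0.82 ± 0.14 in scivMSC skin. The adjusted p was 0.00515, 0.00122 and 0.00649, and it stayed under the threshold in every alternative, with a highest value of 0.0466. The log2 fold change of Stat5b was -0.74 ± 0.18 in DNCB skin, -0.89 ± 0.18 in scMSC skin and -0.74 ± 0.18 in scivMSC skin. The adjusted p was 0.0126, 0.00752 and 0.0224. With library size alone or limma on FPKM, Stat5b missed the threshold in DNCB, at 0.0606 to 0.0665, and in scivMSC, at 0.0778 to 0.0848. In scivMSC it also missed it without control replicate 1 or scivMSC replicate 1 or 2, at adjusted p of 0.0606 to 0.0753 within a range of 0.00263 to 0.0753, and in scMSC with only the 6 libraries compared, at 0.0564. The MSC groups were not shown to differ from DNCB in these genes. Stat5a was 0.42 ± 0.14 higher on the log2 scale in DNCB than in scMSC, with an adjusted p of 0.0771, which became 0.0262 with DESeq2 and 0.0324 without scMSC replicate 1 within a range of up to 0.257. Stat5b differed by 0.00 ± 0.18 between DNCB and scivMSC and by 0.15 ± 0.18 between DNCB and scMSC, with adjusted p of 0.999 and 0.685.

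Stat5b, Stat5a and Stat3 are neighbours on chromosome 11, with 8627 bp from the end of Stat5b to the start of Stat5a, while Stat5a and Stat3 overlap by 72 bp on opposite strands. Strand-specific counting is not stated, so reads from that overlap could be assigned to either gene. The transcripts of the STAT5 genes also resemble each other. Of the 3909 windows of 50 bases in the longest transcript of Stat5a, 421 (10.8%) occur in Stat5b, and 608 of 5164 (11.8%) the reverse, so the division of reads between them is uncertain.

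Cish (ENSMUSG00000032578, chromosome 9, 107296026 to 107302784, plus strand), a classical STAT5-induced inhibitor of cytokine receptors, had its group means in the reverse order of those of Socs3. It measured 2.74, 5.48 and 5.23 FPKM in control and 3.95, 2.61 and 3.13 in DNCB. It measured 5.16, 5.86 and 4.58 FPKM in scMSC and 4.95, 5.01 and 4.28 in scivMSC. All DNCB libraries lay below the 6 MSC libraries, whereas control replicate 1 lay among the DNCB libraries. No difference passed. The log2 fold change in DNCB was -0.66 ± 0.24 relative to control, -0.72 ± 0.24 relative to scMSC and -0.56 ± 0.24 relative to scivMSC, with adjusted p of 0.074, 0.0847 and 0.199. Without control replicate 1 the adjusted p became 0.0107 against control and 0.0295 against scMSC. DESeq2 gave 0.0428 and 0.0455, and a filter at 1 FPKM gave 0.0489 against control. Over all alternatives the adjusted p against control rose to 0.242 and against scMSC to 0.264. Cish overlaps Gm17040 on the other strand.

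Socs2 (ENSMUSG00000020027, chromosome 10, 95385362 to 95417180, minus strand), a STAT5-induced inhibitor of growth hormone signalling, was low in all groups. It measured 0.367, 0.421 and 0.740 FPKM in control, 0.717, 0.641 and 0.763 in DNCB, then 0.690, 0.414 and 0.403 in scMSC skin, and 0.881, 0.776 and 0.197 in scivMSC. The groups overlapped, with log2 fold changes in DNCB of 0.30 ± 0.45 relative to control and 0.47 ± 0.45 relative to scMSC and adjusted p of 0.68 and 0.587. Relative to scivMSC it was 0.20 ± 0.45, with an adjusted p of 0.85.

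Stat2 (ENSMUSG00000040033, chromosome 10, 128270559 to 128292849, plus strand), the interferon-specific STAT, likewise did not pass in any comparison. It measured 2.70, 1.98 and 4.78 FPKM in control, 3.16, 3.10 and 3.52 in DNCB, then 5.05, 2.41 and 2.75 in scMSC skin, and 3.61, 3.77 and 2.77 in scivMSC. The DNCB range lay inside those of control and scMSC. Log2 fold changes in DNCB were -0.12 ± 0.30, -0.07 ± 0.30 and -0.06 ± 0.30 relative to control, scMSC and scivMSC, with adjusted p of 0.821, 0.927 and 0.95, and the sign against control turned with library size alone.

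Stat4 (ENSMUSG00000062939, chromosome 1, 51987148 to 52107189, plus strand), a STAT of T and natural killer cells, was near the detection limit. It had 0 estimated counts in all 3 control libraries, 52, 34 and 42 in DNCB, then 53, 14 and 0 in scMSC skin, and 31, 97 and 8 in scivMSC. About 4 estimated counts correspond to 1 fragment, so a floor of 3 fragments is 12 estimated counts per library. The observed mean was 3.25 times the control floor in DNCB, 1.63 times in scMSC and 3.36 times in scivMSC. The floor covers counting error in control only, not that of the other groups or the spread between libraries. In scMSC replicate 1 held 53 of 67 estimated counts, and in scivMSC replicate 2 held 97 of 136. No test was made. Stat4 overlaps Gm3940 and Gm28177.

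The balance between members was then compared within each library. Socs3 per Stat3, the inhibitor relative to its activator, had a mean ratio of FPKM of 1.06 ± 0.181 in control and 1.93 ± 0.580 in DNCB skin, but 0.655 ± 0.162 with scMSC and 0.765 ± 0.197 with scivMSC. The DNCB libraries, from 1.47 to 2.58, lay above all others, so Socs3 rose by more than Stat3. Stat3 per Stat5b was 0.862 ± 0.0517 in control and 2.13 ± 0.147 in DNCB. With 1.25 ± 0.364 in scMSC and 1.42 ± 0.275 in scivMSC, the MSC groups lay between, and every one of their libraries, from 0.997 to 1.67, was above control, whose highest was 0.913, and below DNCB, whose lowest was 1.97. Stat5b per Stat5a stayed between 3.28 and 4.86 in all libraries. Socs3 per Cish was 3.56 ± 2.09 in control and 13.0 ± 1.53 in DNCB skin, but 1.42 ± 0.565 with scMSC and 2.36 ± 0.823 with scivMSC. These ratios are descriptions of values already tested gene by gene and were not tested again.

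**Figure D3:**
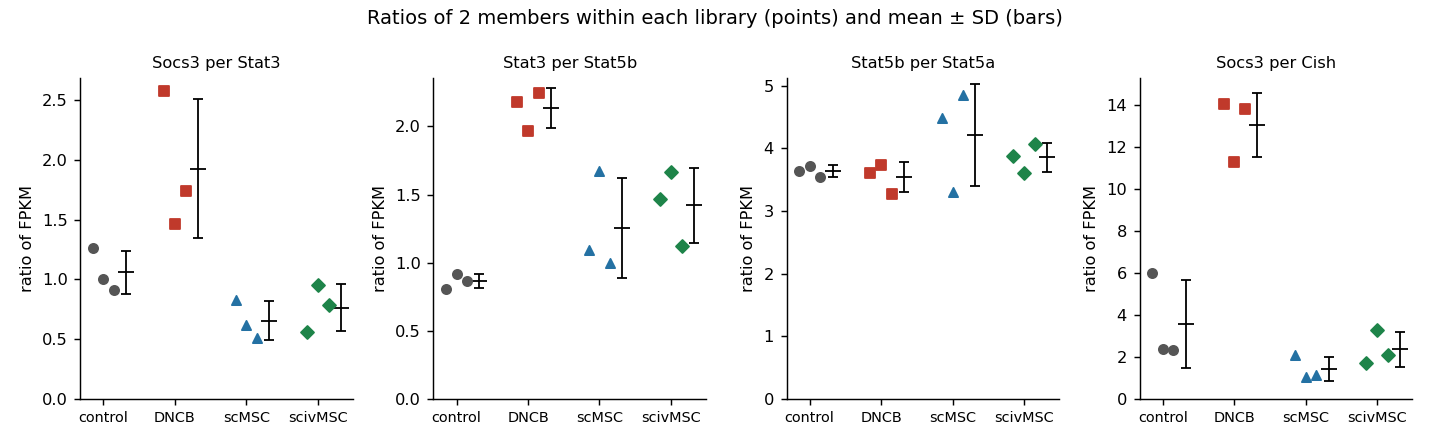
Ratio of the FPKM of 2 genes in each library (points) with the mean ± SD, by group, on axes that start at 0. Stat3 per Stat5b was lowest in control, intermediate in both MSC groups and highest in DNCB, from 1.97 to 2.25, whereas Stat5b per Stat5a overlapped between groups.

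The other genes of the pathway were examined as lists of 135 genes in all, of which 118 were tested. In DNCB skin 32 rose and 6 fell relative to control, 28 were higher and 3 lower than in scMSC, and 21 were higher and 4 lower than in scivMSC. The shares over all tested genes were 12.9% and 12.4%, 5.77% and 6.95%, and 3.60% and 4.56%, and they are the background for the counts of each list below. Of 22 tested ligands, 6 rose and 1 fell relative to control, 7 were higher and 0 lower than in scMSC, and 4 were higher and 1 lower than in scivMSC. Osm, which encodes the gp130 cytokine oncostatin M, measured 6.03 to 13.9 FPKM in DNCB, 0.271 to 0.611 in control and at most 0.391 in the MSC libraries. Its log2 fold change was 4.27 ± 0.70, 5.14 ± 0.73 and 5.72 ± 0.75 relative to control, scMSC and scivMSC, with adjusted p of 0.00195, 0.00239 and 0.00409. Csf3, which encodes G-CSF, a STAT3-activating cytokine that releases neutrophils, measured 6.40 to 14.0 FPKM in DNCB and at most 0.387 elsewhere, and passed in all 3 comparisons with adjusted p of 0.00589, 0.00864 and 0.0224. Il24, an IL-20-family cytokine that signals through STAT3, measured 2.35 to 3.76 FPKM in DNCB and was listed at 0 in all control and scMSC libraries, for which no fold is given. It passed against both, with adjusted p of 0.0314 and 0.0475, and not against scivMSC, which reached 0.760 FPKM, with 0.281. Il6 was low, at 0.322 to 1.28 FPKM in DNCB and at most 0.109 elsewhere. It passed against scMSC and scivMSC, with adjusted p of 0.0238 and 0.0435, and not against control, at 0.0745. Il20 moved the other way, at 0.729 to 1.97 FPKM in control and at most 0.172 in DNCB, with a log2 fold change of -3.82 ± 1.12 and an adjusted p of 0.0284.

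Among receptors, Csf3r, the G-CSF receptor of neutrophils, rose from 0.566 to 2.47 FPKM in control to 25.8 to 31.5 in DNCB, with a log2 fold change of 4.02 ± 0.62 and an adjusted p of 0.00153. Of 10 tested in the gp130-type list, 2 rose relative to control (Csf3r and Cntfr) and 1 fell (Il31ra). Only Csf3r was also higher in DNCB than in scMSC and scivMSC, and 0 were lower. Il31ra fell by -3.445 ± 0.78 relative to control, with an adjusted p of 0.00879. Cntfr rose by 1.67 ± 0.35 with 0.00648, and was also above control in scMSC and scivMSC, with adjusted p of 0.00302 and 0.00599. Il6st, which encodes gp130 itself, did not pass, at 0.34 ± 0.28 on the log2 scale relative to control with an adjusted p of 0.415. In the list of common gamma and common beta chain receptors, 4 of 14 tested rose relative to control and 0 fell, among them Csf2rb2, with a log2 fold change of 1.26 ± 0.34 and an adjusted p of 0.0203, and Il2rg, the common gamma chain, with 1.07 ± 0.29 and 0.0218. The others were Il4ra and Il13ra1, which the study chose on these libraries. Of 12 tested interferon, IL-10 and IL-12 family receptors, 1 rose (Ifnar2) and 2 fell (Ifngr2 and Il20ra), near the background of 12.9% and 12.4%. Il20ra, a receptor chain for Il20 and Il24, fell by -2.52 ± 0.43 with an adjusted p of 0.00242. Ghr, the growth hormone receptor that signals through STAT5, followed Stat5a and Stat5b in part. It measured 12.6 to 15.5 FPKM in control and 6.71 to 12.1 in the other libraries, and fell in DNCB, by -0.78 ± 0.24 with an adjusted p of 0.0331, and in scMSC, by -0.84 ± 0.24 with 0.0317, while scivMSC missed the threshold, at -0.79 ± 0.24 with 0.0502.

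Of the 4 JAKs, 0 passed against control, 3 were higher in DNCB than in scMSC (Jak1, Jak2 and Jak3) and 1 than in scivMSC (Jak2). The study chose these 3 on the same libraries, so they are not independent evidence of a direction. Of 5 other STAT and SOCS genes, Stat6, Socs4 and Socs5 rose in DNCB relative to control, and Stat6 was among the genes that the study chose on these libraries. Socs4, a SOCS protein linked to epidermal growth factor receptors, was also higher than control in scMSC, at 0.71 ± 0.12, and scivMSC, at 0.64 ± 0.12, with adjusted p of 0.00342 and 0.00878. It did not pass between DNCB and scMSC, at -0.16 ± 0.12 with an adjusted p of 0.478, or between DNCB and scivMSC, at -0.09 ± 0.12 with 0.731. The levels were 5.99 to 6.39 FPKM in DNCB, 6.58 to 7.16 in scMSC and 5.41 to 7.28 in scivMSC, against 3.37 to 4.25 in control. Of 10 genes listed as other negative regulators, 4 rose relative to control and 0 fell. They were the phosphatases Ptpn1, Ptpn2, Ptpn6 and Ptprc, of which Ptpn6 and Ptprc are those of blood cells. Ptpn6 and Ptprc were also higher in DNCB than in scMSC and in scivMSC. Ptpn11 was lower in DNCB than in scMSC, by -0.67 ± 0.16 with an adjusted p of 0.0228. Ptprc, the pan-leukocyte CD45, measured 3.69 to 4.16 FPKM in DNCB and 0.350 to 1.78 elsewhere, with a log2 fold change of 1.70 ± 0.48 and an adjusted p of 0.0251.

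Known STAT3 target genes had the largest share of passing genes among the pathway lists against control. Of 20 tested, 13 rose relative to control, 8 were higher than in scMSC and 9 than in scivMSC, where 12.9%, 5.77% and 3.60% of all tested genes did, and 0 were lower in any of the 3. Their median log2 fold change was 1.20, 0.81 and 0.69, against 0.02, -0.02 and -0.02 over all tested genes. Timp1, an inhibitor of matrix proteases, measured 50.0 to 75.4 FPKM in DNCB and 1.08 to 10.5 elsewhere, with a log2 fold change of 4.398 ± 0.65 relative to control and an adjusted p of 0.00131. Saa3, an acute-phase protein, measured 55.4 to 102 FPKM in DNCB and 0.599 to 6.48 elsewhere, with 4.87 ± 0.80 and 0.00197. Bcl3, a nuclear partner of NF-κB, and Hif1a, the oxygen-sensing transcription factor, rose by 1.66 ± 0.34 and 1.73 ± 0.22 with adjusted p of 0.0052 and 0.000857. The list holds Lcn2 and Il4ra, which the study also chose on these libraries, and Lcn2 is a neutrophil marker as well. The whole list was chosen with earlier results of these data known, so its counts are a description. Activity of the STAT3 protein was not measured.

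Among 9 tested STAT5 target genes, 1 rose (Osm) and 1 fell (Bcl6) relative to control, near the background of 12.9% and 12.4%. The list does not separate induced from repressed targets, so its counts give no direction of STAT5 activity. In DNCB 2 were higher (Igf1 and Osm) and 1 lower (Ccnd2) than in scMSC, and 2 were higher (Igf1 and Osm) and 2 lower (Bcl6 and Ccnd2) than in scivMSC. Bcl6, a transcriptional repressor, measured 8.53 to 10.9 FPKM in DNCB and 12.3 to 13.7 in control, with a log2 fold change of -0.65 ± 0.17 and an adjusted p of 0.0196. Igf1, the growth factor induced by growth hormone, measured 5.83 to 7.997 FPKM in DNCB and 1.299 to 3.86 elsewhere. It did not pass against control, at 0.74 ± 0.30 and 0.0994, but did against scMSC, at 1.74 ± 0.31 and 0.0053. Of 13 tested interferon-induced target genes of STAT2, 0 passed in the DNCB comparisons. Their median log2 fold change was -0.32, 0.67 and 0.73 relative to control, scMSC and scivMSC, against 0.02, -0.02 and -0.02 over all tested genes. Isg15, an interferon-induced ubiquitin-like protein, had 0.69 ± 0.36 relative to control with an adjusted p of 0.189. Ifit3, another of the list, had -1.30 ± 0.58 with 0.128.

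**Figure D4:**
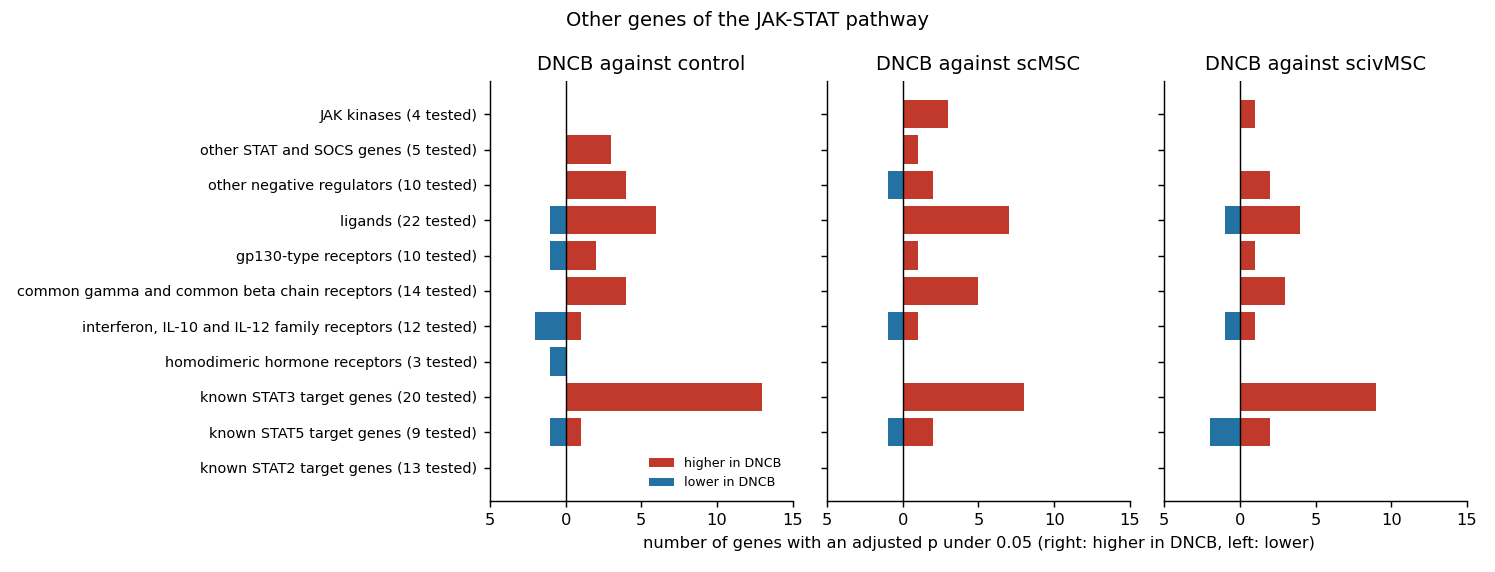
Number of genes in each pathway list that were higher in DNCB (bars to the right) or lower in DNCB (bars to the left) at an adjusted p under 0.05, with the number tested beside each name. STAT3 targets have the longest bars, at 13, 8 and 9 of 20, and STAT2 targets have none.

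Marker genes of the cell types in skin moved with these results, and their part in them was not tested. The 10 neutrophil markers summed to 2558 to 3528 FPKM in DNCB and 135 to 229 in control, and to 22.9 to 75.4 with scMSC and 52.2 to 197 with scivMSC. In DNCB 9 of the 10 were higher than in control, 10 than in scMSC and 8 than in scivMSC, and none was at 0 in all libraries. The study chose several of them (Lcn2, Hdc, Trem1, Mmp9, Cxcr2 and Il1r2) on these libraries. It also chose Cd14, of the macrophage and monocyte markers, and Sprr1b, of the stress keratinocyte markers. Marker sums are unweighted, so the most abundant markers dominate them and they do not count cells. In DNCB skin Csf3r averaged 28.0 FPKM and Lcn2 26.3, within a mean neutrophil sum of 3109 FPKM. Within DNCB, replicate 2 had the highest neutrophil sum, 3528 FPKM, and the lowest Socs3, 29.4 FPKM. Among the 6 MSC libraries, scivMSC replicate 2 had the highest neutrophil sum, 197 FPKM, and also the highest Socs3, 16.5 FPKM, and Stat3, 17.4 FPKM. The 5 stress keratinocyte markers summed to 6652 to 8383 FPKM in DNCB and 226 to 304 in control, and to 249 to 678 with scMSC and 594 to 3947 with scivMSC. The highest of these MSC sums was in the same scivMSC replicate 2. Of these 5 markers, 5 were higher in DNCB than in control and 0 lower. Against scMSC 4 were higher and 1 lower, and against scivMSC 0 were higher and 1 lower. The 7 basal keratinocyte markers were present in every library of the labelled tissue, and summed to 8221 to 10497 FPKM in DNCB and 1771 to 5530 elsewhere, with 4 of the 7 higher and 1 lower in DNCB than in control. The 7 fibroblast markers summed to 2110 to 2452 FPKM in DNCB and 160.1 to 1114 elsewhere. Of these, 4 were higher in DNCB than in control, 3 than in scMSC and 0 than in scivMSC. The sums of 11 macrophage and monocyte markers (936 to 1012 FPKM, at most 826 elsewhere), 10 T cell markers (37.8 to 44.6 FPKM, at most 35.5 elsewhere) and 7 endothelial markers (54.3 to 68.7 FPKM, at most 46.0 elsewhere) also stood apart in DNCB. Taken singly, 1 of 11 macrophage and monocyte, 2 of 8 tested T cell and 3 of 7 endothelial markers were higher than in control. The counts were 1, 2 and 4 against scMSC and 1, 0 and 1 against scivMSC, and 0 were lower in each. The median log2 fold change against control of the 8 tested T cell markers was -0.20. Shares over all tested genes, given above, are the background for marker counts.

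The fall of Stat5a and Stat5b moved with skeletal muscle, whose 10 markers summed to 16479 to 23319 FPKM in control and 4757 to 6452 in DNCB, and to 4690.1 to 10810 with scMSC and 4965 to 12265 with scivMSC. In each DNCB-treated group 7 of the 10 were lower than in control, and none was at 0 in all libraries. The lowest muscle sum of all 12 libraries, 4690.1 FPKM, was in scMSC replicate 2, which also had the lowest Stat5b, 5.88 FPKM, and Stat5a, 1.78 FPKM. Replicate 3 of scMSC and of scivMSC had the highest muscle sums of the 9 DNCB-treated libraries, 10810 and 12265 FPKM, with Stat5b at 10.2 and 10.03 FPKM, against 5.88 to 11.7 FPKM in the other 7 DNCB-treated libraries. Of the 8 adipocyte markers, 4 were lower in DNCB than in control. Hair shaft and inner root sheath markers summed to 2408 to 17572 FPKM in the MSC groups and at most 918 elsewhere.

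**Figure D5:**
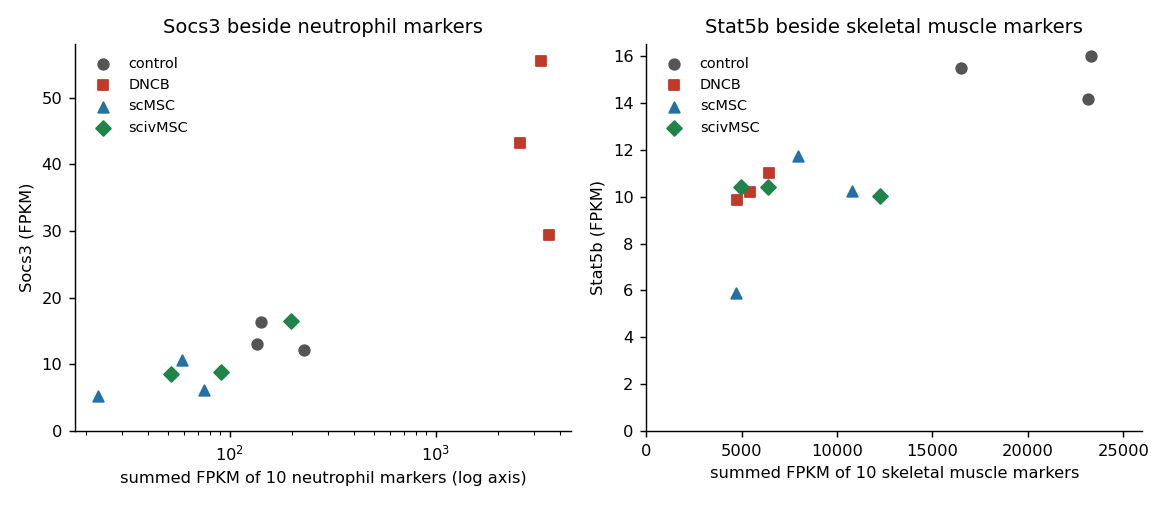
Left, Socs3 (vertical axis, FPKM) beside the summed FPKM of 10 neutrophil markers (log axis). Right, Stat5b beside the summed FPKM of 10 skeletal muscle markers, with 1 point per library. The 3 DNCB libraries stand apart on the left, at neutrophil sums of 2558 or more, and the 3 control libraries on the right, at muscle sums of 16479 or more.

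The genes that followed each member most closely over the 12 libraries were found as a description. Pearson correlation of log2(FPKM + 0.1) was used, among the 14386 genes whose mean reached 1 FPKM. The points share libraries, groups and depth. Socs3 was closest to Ccl7 (r = 0.987), a chemokine for monocytes, and Il33 (0.975), an epithelial alarmin. Stat3 was closest to Tmprss11g (0.976) and Il4ra (0.973), the receptor chain for IL-4 and IL-13. Stat5b was closest to Tmcc2 (0.973) and Nr3c1 (0.964), the glucocorticoid receptor, and Stat5a to Itga7 (0.962), a laminin receptor chain of muscle. Socs1 was closest to Apln (0.960), the peptide apelin. Among the members themselves, r was 0.918 for Stat3 with Socs3, 0.924 for Socs1 with Socs3, 0.907 for Stat5a with Stat5b and 0.124 for Stat3 with Stat5b.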

How the data were processed

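RNA of dorsal skin from 12 libraries in 4 groups was analysed, grouped by the sample titles. The authors deposited FPKM, scaled for gene length and library size, together with whole-number estimated counts per gene that are not normalized. The submitters' processing notes list HISAT2 2.0, StringTie 1.3.0 and Bowtie 0.12.2 without roles, and the counting tool and strand setting are not given in the sources used here. The notes list another build, but gene positions in the table are those of GRCm38, the build used here with GENCODE M21 and RefSeq.

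The genes whose mean over all libraries reached 0.1 FPKM were tested on their estimated counts by edgeR 4.0.16 under R 4.3.3 with its quasi-likelihood F-test, after TMM normalization (factors 0.887 to 1.06), with the 4 groups in 1 model without a block. The plan had named this test for counts. Adjusted p-values are Benjamini-Hochberg over the 21890 genes and come from edgeR unless another tool is named. Each standard error was computed from the log2 fold change and its F value. The common biological coefficient of variation came to 0.420. Where no source says that libraries came from separate mice, p-values measure the spread between libraries. For a gene taken alone, with 3 libraries in each group, 0.10 is the smallest two-sided p of an exact permutation test.

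Multiples of 4 made up 38.9% to 41.2% of the estimated counts between 1 and 18, so 4 were taken as 1 fragment. Alternatives used DESeq2 1.42.0, limma 3.58.1 on log2(FPKM + 0.1) and log2(FPKM + 1), other scaling, filters, counts divided by 4, the compared libraries alone, a replicate block, other thresholds and each library left out in turn. The steps were tested on simulated data. Figures used matplotlib 3.10.9. The members, the pathway and marker lists and the tests were chosen with earlier results of these data known. In the pathway lists, 1 planned gene is not reported here. The named genes are all members in every comparison and examples from the lists.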

Additional observations from a re-analysis of the deposited data

How the results depend on the processing

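Among 14 member results that passed, 274 of 308 refits kept direction and threshold, 34 lost the threshold and 0 turned. Among 15 that did not pass in the DNCB comparisons, 305 of 327 kept both, 9 passed and 13 turned in sign. Socs3 in the 3 DNCB comparisons, Stat3 against scMSC and Stat5a against control passed in every refit. The count of passing members in DNCB against control was 1 under both rules that require a 2-fold change (adjusted p under 0.05, or the unadjusted p under 0.5 of the study). Against scMSC it was 5 with DESeq2. Against scivMSC it was 1 with library size alone, no filter, the 6 libraries alone, the replicate block or either 2-fold rule, and 1 to 2 with single libraries left out. In scMSC against control it was 1 with the 6 libraries alone and 5 with DESeq2. In scivMSC against control it was 1 with library size alone or limma with either pseudocount, 0 under either 2-fold rule, and 1 to 2 with single libraries left out. For Stat2 against control the log2 value became 0.047 with library size alone, 0.136 and 0.091 with limma at pseudocounts of 0.1 and 1, and ran from -0.389 to 0.216 with single libraries left out, above 0 only without control replicate 3. Against scMSC it became 0.011 with limma at 0.1 and ran from -0.219 to 0.284, and against scivMSC it ran from -0.160 to 0.007, with the highest values without scMSC replicate 1 and without scivMSC replicate 2. For Stat5b the range was -0.047 to 0.322 against scMSC, below 0 only without scMSC replicate 2. Against scivMSC it became -0.001 with a filter at 1 FPKM and ran from -0.040 to 0.038, below 0 without DNCB replicate 3 or scivMSC replicate 1 or 2. For Socs2 against scivMSC it ran from -0.216, without scivMSC replicate 3, to 0.542. The cause was not tested. Ratios of group means in TMM-scaled CPM moved by less than 1 SD from those in FPKM for 20 of 24.

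Same-numbered libraries of different groups did not deviate together, with correlations of -0.185 to 0.133 in 18 pairs against -0.148 to 0.148 in 36 pairs of different number, and 3 of 12 libraries were closest to their own number. No pairing by number was detected, though with 3 libraries per group a weak one could be missed. With the replicate block, the members passing against scivMSC went from 2 to 1, as Stat3 had an adjusted p of 0.0572. Depth limits Stat4 most, since a count of 0 in control allows up to 3 fragments per library.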
